A study of Sus scrofa with 15 samples.

Results

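The genes described here come from LLC-PK1, an epithelial cell line of the pig renal proximal tubule, and are those whose level in the libraries of all 3 PKD2 mutants lay highest relative to the libraries without a mutant. PKD2 encodes polycystin-2, a cation channel of the cilium and endoplasmic reticulum that is mutated in autosomal dominant polycystic kidney disease. Cells were transfected with 3 µg of plasmid, and RNA was taken 48 h later. NC received the plasmid without a PKD2 gene, WT the plasmid with normal human PKD2, Tg1 the c.A1532T change (p.D511V), Tg2 c.T1967G (p.L656W) and Tg3 c.C2224T (p.R742X, a premature stop that removes the C-terminal tail), with 3 libraries per group. All 4 PKD2 inserts are driven by the CAG promoter, the 5 groups share one cell line with its own PKD2 genes, and the share of cells that took up plasmid is not known from the counts. Neither the PKD2 gene of the pig nor the human insert was analysed here, so the counts hold no check of the plasmids. Replicates are separate wells of one cell line, and p-values measure only the spread between these wells.

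Levels are counts scaled to a common library total (CPM), on the log2(CPM + 1) scale where differences are formed. The score of a gene was its lowest value among the 9 mutant libraries minus its highest value among the 6 WT and NC libraries, so a score above 0 means that the 2 sets of libraries did not overlap. Of 16660 genes in the table, 9536 had a mean of 10 CPM or more, and the 100 highest scores among them were taken. RASGEF1C and the proteasome subunit gene PSMB3 were then left out by name, which left 98 genes. The score chose the genes, so every difference of these genes between mutants and WT or NC below is a description with no test. The mutants were tested against each other and WT against NC, since the score did not use the direction of these differences. It did favor genes that are level within the 9 mutant libraries and within the 6 others, which works against calls there.

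Ribosomes are made in the nucleolus, where ribosomal RNA is transcribed, cut, methylated and pseudouridylated while assembly factors build the small and large subunits. The process takes up much of the biosynthetic effort of a dividing cell, and its genes are usually expressed together in growing cells. The members of the set were sorted by role after their names were seen, and ribosome biogenesis was the largest role, with 20 of the 98 genes. Splicing and RNA-binding proteins, and proteins of the cytoskeleton and cell junctions, followed with 9 genes each. Translation and protein targeting, cytokine signaling and mitochondria had 5 genes each, cell cycle and repair 4, tRNA modification and RNA polymerase III 4, and arginine methylation 2. A further 28 genes had other roles and 7 had no symbol.

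In strict terms, the libraries of all 3 mutants lay above all WT and NC libraries for 44 of the 98 genes, with 54 at or below 0, so the description as highest in all mutants holds without overlap for fewer than 1 in 2 of them. Among all 9536 genes, 46 (0.482%) had a score above 0, and 67 lay lower in all 9 mutant libraries than in all 6 others. Scores of the members ran from 0.121 for RRP8 down to -0.0237 for SCYL3, with a median of -0.0017, against a median of -0.284 over the 9536 genes. The last 3 genes taken were UAP1, ABT1 and SCYL3, with scores from -0.0234 to -0.0237. The first 3 not taken, TIMM17A, EIF4A1 and TFG, had scores from -0.0238 to -0.0243, so the boundary falls where neighboring genes are practically level. The counting error of a score had a median of 0.050, and the 95% counting interval included 0 for 97 of the 98 genes, TUBA1B being the exception. These intervals cover counting error only.

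The differences were small and even. Against WT and NC together, with edgeR's TMM normalization, the mutants had a median log2 fold change of 0.18 over the members, or 1.13-fold. The range was from 0.092 to 0.363, and 13 genes reached 0.26. The median SD within groups was 0.044 for the members and 0.076 for the 9536 genes. By difference of means of log2(CPM + 1) from library totals, the members had a median of 0.13. On that measure, the 100 genes with the largest difference had a median of 0.60. Their SD within groups was 0.35 and their median score -0.51, and none of the 98 members was among them. The best placed member held rank 276 by difference of means. The score therefore collected genes with a narrow spread between wells and a small offset.

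**Figure D1:**
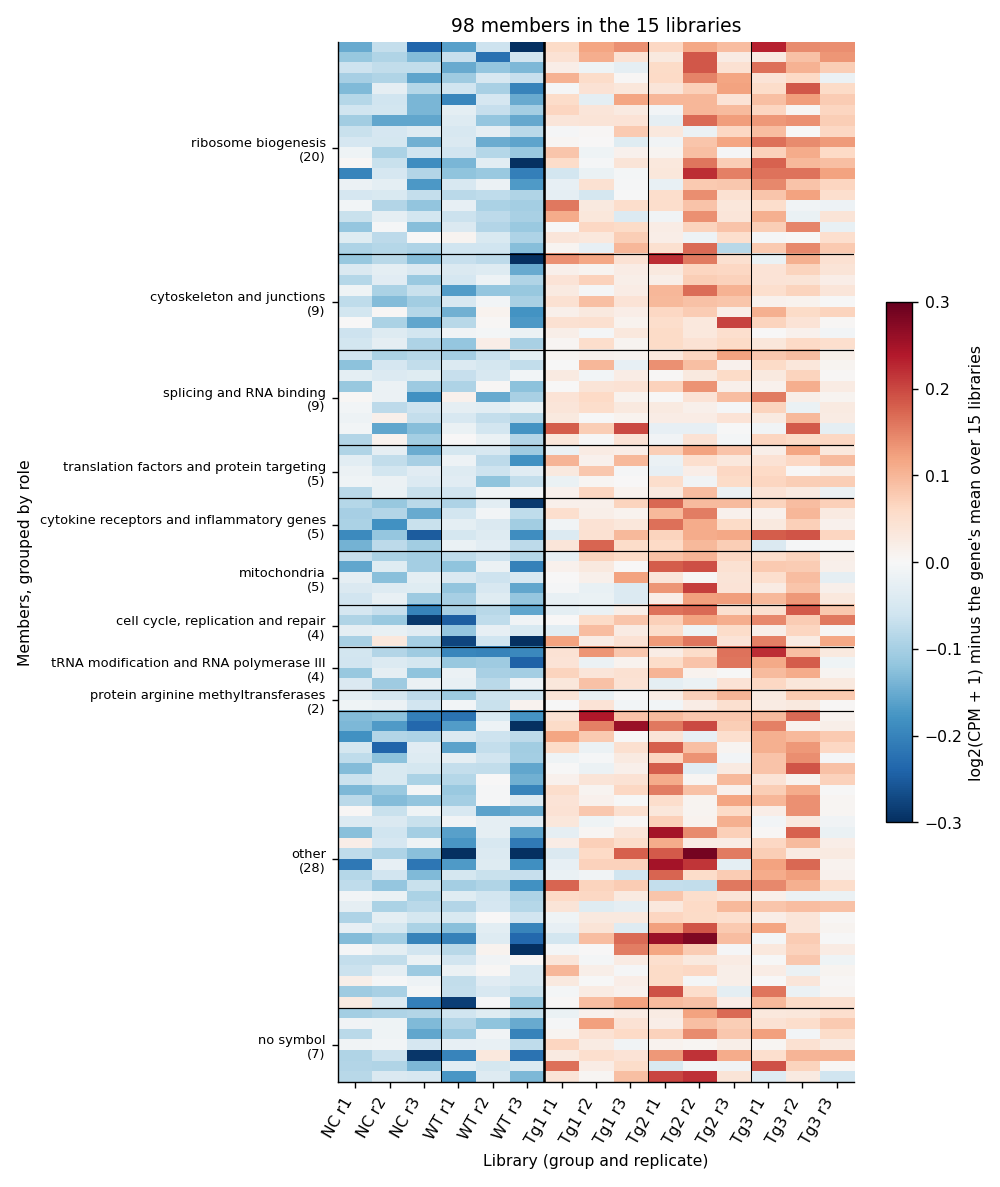
Level of each of the 98 members (rows, grouped by role, number of genes in brackets) in the 15 libraries (columns), as log2(CPM + 1) minus the mean of the gene over all libraries, with colors limited to 0.3 in either direction. The 9 mutant columns on the right are mostly red and the 6 NC and WT columns mostly blue, which is what the score selected; WT replicate 2 is paler than WT replicates 1 and 3 in many rows.

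The highest score belonged to RRP8 (ENSSSCG00000023880), a nucleolar protein that methylates ribosomal RNA. In replicates 1, 2 and 3, in that order here and below, RRP8 was at 17.9, 18.9 and 16.8 CPM in NC, 17.7, 19.0 and 14.8 CPM in WT, 20.8, 21.7 and 22.0 CPM in Tg1, 20.9, 21.7 and 21.3 CPM in Tg2 and 23.6, 22.1 and 22.0 CPM in Tg3. The lowest mutant library lay 0.121 above the highest other library on the log2 scale, and WT replicate 3 was the lowest of the 15. RRP8 had log2 fold changes of 0.31, 0.33 and 0.38 in Tg1, Tg2 and Tg3 against NC, each with a standard error (SE) of 0.09, and 0.36, 0.38 and 0.43 against WT. Tg3 exceeded Tg1 by 0.07 (SE 0.09) on the log2 scale, which was not called.

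DDX56 (ENSSSCG00000016745), a nucleolar RNA helicase of large subunit assembly, was at 28.5, 29.0 and 28.1 CPM in NC, 29.4, 26.3 and 29.6 CPM in WT, 31.8, 33.4 and 31.9 CPM in Tg1, 31.6, 35.3 and 31.5 CPM in Tg2 and 31.5, 32.9 and 34.0 CPM in Tg3. No mutant library fell below 31.5 CPM, and no NC or WT library exceeded 29.6 CPM. With edgeR's TMM normalization in place of library totals, DDX56 had the highest score of all genes, 0.120, and RRP8 had 0.084.

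DKC1 (ENSSSCG00000012823) encodes dyskerin, the pseudouridine synthase of H/ACA small nucleolar particles, which also belongs to telomerase. It was at 76.4, 75.8 and 75.7 CPM in NC, 71.7, 73.6 and 72.5 CPM in WT, 80.9, 79.0 and 78.2 CPM in Tg1, 83.0, 91.0 and 82.4 CPM in Tg2 and 89.5, 85.8 and 84.0 CPM in Tg3. NC was nearly uniform, WT lay below NC in every library, and Tg1 was the lowest of the mutants without overlap with Tg2 or Tg3. DKC1 had log2 fold changes of 0.10, 0.25 and 0.23 in Tg1, Tg2 and Tg3 against NC.

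PES1 (ENSSSCG00000010010), part of the PeBoW complex that processes the precursors of the large subunit, was at 90.0, 90.3 and 85.2 CPM in NC, 92.0, 89.4 and 87.4 CPM in WT, 98.2, 96.3 and 95.6 CPM in Tg1, 93.3, 101 and 100.2 CPM in Tg2 and 98.2, 94.2 and 98.2 CPM in Tg3. Its lowest mutant value, in Tg2 replicate 1, and its highest other value, in WT replicate 1, lay 0.0206 apart on the log2 scale. With TMM normalization this gap was 0.084.

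The remaining ribosome biogenesis members cover both subunits. NOB1 (ENSSSCG00000002753), the nuclease that makes the final cut of the small subunit RNA, ranged from 42.5 to 47.8 CPM (median 45.0) in the 9 mutant libraries and from 38.5 to 41.6 CPM (median 40.3) in the 6 others. GTPBP4 (ENSSSCG00000028602), a GTPase of large subunit maturation, ranged from 76.2 to 87.1 CPM (median 79.4) in the 9 mutant libraries and from 66.4 to 75.0 CPM (median 71.7) in the 6 others. NOC4L (ENSSSCG00000009739), a factor of small subunit assembly, ranged from 47.99 to 53.5 CPM (median 52.2) in the 9 mutant libraries and from 42.7 to 47.2 CPM (median 45.3) in the 6 others. These 3 had scores between 0.0226 and 0.0311.

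Members below them in the order of scores included NOP2 (ENSSSCG00000000696), a ribosomal RNA cytosine methyltransferase, with log2 fold changes of 0.22, 0.31 and 0.30 in Tg1, Tg2 and Tg3 against NC (SE 0.05). TSR1 (ENSSSCG00000038534), needed for the late small subunit, had log2 fold changes of 0.12, 0.33 and 0.30 in Tg1, Tg2 and Tg3 against NC (SE 0.06). PWP2 (ENSSSCG00000029627), of the small subunit processome, had log2 fold changes of 0.11, 0.22 and 0.27 in Tg1, Tg2 and Tg3 against NC (SE 0.05). TSR1 and PWP2 thus had their smallest difference in Tg1, whereas RRP1 (ENSSSCG00000037061), a large subunit factor, had its smallest in Tg3, with log2 fold changes of 0.19, 0.21 and 0.12 in Tg1, Tg2 and Tg3 against NC. NOC2L, MRTO4, NOP56, NOLC1, GNL3 and BYSL, all of the nucleolar assembly line, had scores between -0.0206 and 0.00856. The scores of SDAD1, FTSJ3 and ABT1, 3 further assembly factors, lay between -0.0235 and -0.00606. Over the 20 genes, the median log2 fold change against NC was 0.15 in Tg1, 0.22 in Tg2 and 0.22 in Tg3. Of the 20, 10 had a score above 0 with library totals and 15 with TMM.

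**Figure D2:**
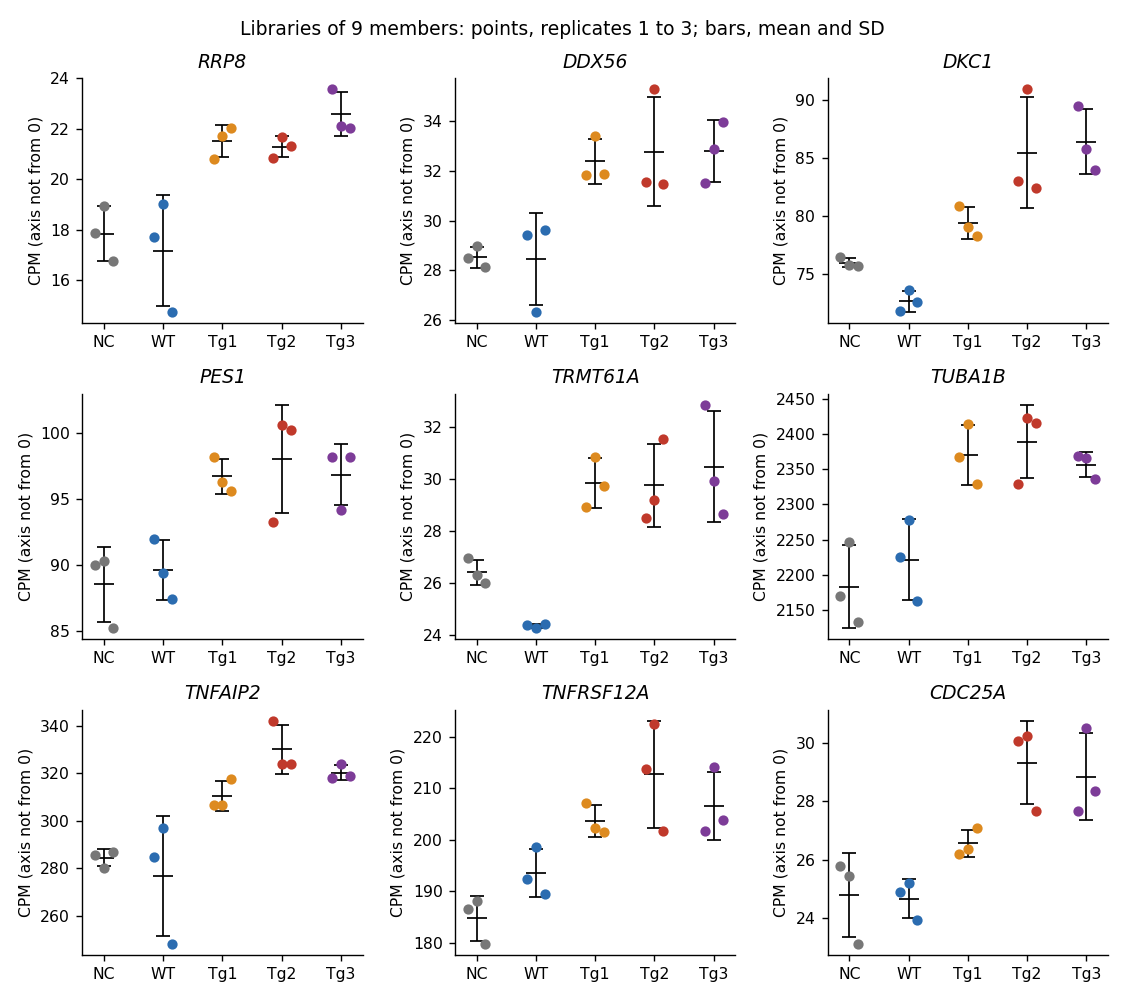
CPM of 9 members in the 5 groups, with each library as a point (replicates 1 to 3 from left to right) and the mean with SD as bars; vertical axes do not start at 0. In each panel all 9 mutant points lie above all 6 NC and WT points, as the score required, and the gap is narrow for PES1 and TNFRSF12A and wider for RRP8, DDX56 and TRMT61A.

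A list of ribosome biogenesis genes was also used to look at the rest of that pathway. Of its 59 genes, 56 were tested, 55 had 10 CPM or more, and 14 of those 55 (25.5%) were members, where the members made up 1.03% of the 9536 genes. They were RRP8, DKC1, NOC4L, PES1, NOP2, NOC2L, PWP2, MRTO4, NOP56, TSR1, NOLC1, RRP1, GNL3 and BYSL, and 7 of them had a score above 0. The list was drawn up with earlier results of these data known, and its share of members is given as a description.

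The other 42 genes of that list are what was left after high scores were taken out, and the score used the same libraries, so their counts of calls against NC are a description. In Tg2, edgeR's quasi-likelihood test called 5 of the 42 higher and 0 lower at an adjusted p of 0.05 or less and a log2 fold change of 0.26 or more, where 4.73% of the 11553 genes tested were called higher. The 5 were RRP1B at 0.52 (SE 0.12), LYAR at 0.41, RRS1 at 0.33, PPAN at 0.31 and RRP7A at 0.30. In RRP1B, a nucleolar protein, the mean was 104 ± 8.51 CPM (SD, n = 3) in NC and 142 ± 13.0 CPM (SD, n = 3) in Tg2. The calls fell to 0 without Tg2 replicate 1, Tg2 replicate 2, NC replicate 1 or NC replicate 3, and were 7 without Tg2 replicate 3 or NC replicate 2. Over the whole list, members included, 8 of 56 were called higher in Tg2. In Tg1 and in Tg3, edgeR called 0 of the 42 (background 0.182% and 0%), and DESeq2 called 1 in each. At an unadjusted edgeR p under 0.05 were 7 and 23 of the 42, and 2304 and 2089 of the 11553 genes.

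Direction in these 42 genes leaned upward, and the counts differed between scalings, as did the background. With TMM, 30, 35 and 39 of the 42 were higher than NC in Tg1, Tg2 and Tg3, with median log2 fold changes of 0.05, 0.14 and 0.12. Of all 11553 genes, 51.0%, 48.3% and 49.4% were higher there. With library totals the numbers were 25, 30 and 34. WDR43 went furthest the other way, at -0.36 in Tg2 against NC, and had the lowest score of the list, -0.946. In Tg3 against Tg1, 1 of the 42 was called, the helicase gene DDX21 (ENSSSCG00000010247), whose Tg1 mean was 118 ± 4.19 CPM (SD, n = 3) and whose Tg3 mean was 146 ± 2.70 CPM (SD, n = 3), which is 0.31 on the log2 scale (SE 0.05, edgeR adjusted p = 0.0104).

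**Figure D3:**
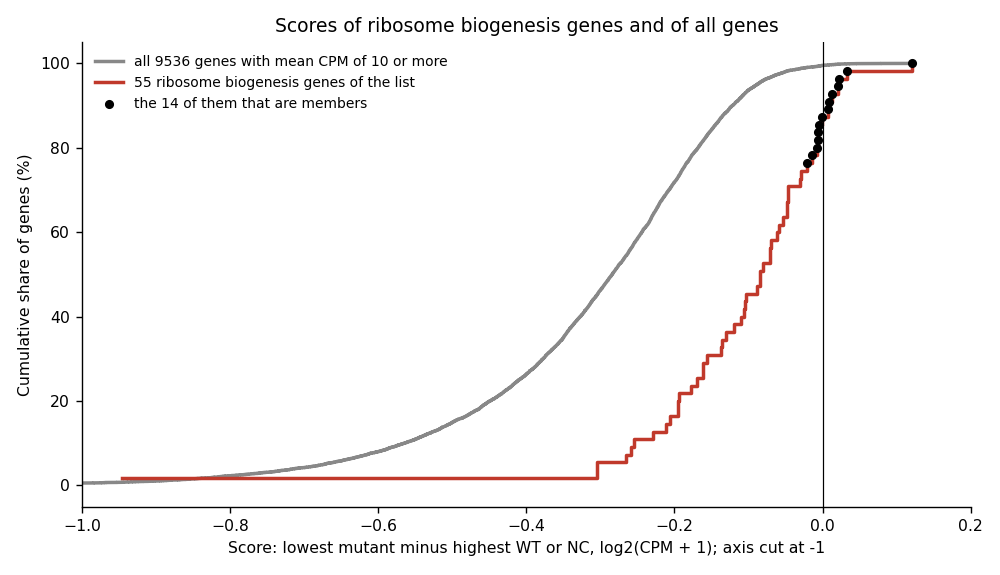
Cumulative share (%) of genes up to each score, for the 55 ribosome biogenesis genes (red) and for all 9536 genes with a mean of 10 CPM or more (gray), with black points for the 14 list genes that are members. The red curve lies to the right of the gray one over most of its range, and WDR43 forms its long lower tail.

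RNA enzymes outside the ribosome were also among the members. TRMT61A (ENSSSCG00000034738), the catalytic subunit of an enzyme that methylates adenosine in transfer RNA, was at 27.0, 26.3 and 26.0 CPM in NC, 24.4, 24.3 and 24.4 CPM in WT, 28.9, 30.9 and 29.8 CPM in Tg1, 28.5, 29.2 and 31.6 CPM in Tg2 and 32.9, 29.9 and 28.7 CPM in Tg3. WT was lower than NC in every library, and the mutants were above both. TRMT61A had log2 fold changes of 0.22, 0.25 and 0.25 in Tg1, Tg2 and Tg3 against NC and 0.33, 0.36 and 0.36 against WT. POLR3E (ENSSSCG00000007840), a subunit of RNA polymerase III, which makes transfer RNA, ranged from 37.1 to 42.7 CPM (median 39.0) in the 9 mutant libraries and from 31.6 to 36.5 CPM (median 35.4) in the 6 others. TRMT2A and DUS1L, both transfer RNA modifying enzymes, had scores of 0.0171 and -0.0123.

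Among splicing and RNA-binding members, CHERP (ENSSSCG00000013860), a splicing protein first described for its part in calcium release from the endoplasmic reticulum, ranged from 94.9 to 103 CPM (median 96.6) in the 9 mutant libraries and from 88.0 to 92.5 CPM (median 89.5) in the 6 others. The other 8 were PRPF38A, PUF60, EWSR1, SAP30BP, EIF4A3, PRPF19, ESS2 and HNRNPH1. With TMM, 8 of the 9 were higher in Tg2 than in Tg1 and ESS2 was lower, at a log2 difference of -0.14 (SE 0.08), which was not called, while with library totals 6 of the 9 were higher in Tg2. The 5 translation members were the initiation factor subunits EIF3B and EIF3D, ABCF1, HGH1 and SRP68, with median log2 fold changes against NC of 0.12, 0.17 and 0.14. The arginine methyltransferase genes PRMT5 and PRMT1 had medians of 0.09, 0.16 and 0.13.

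Cytoskeletal members included the most abundant gene of the set. TUBA1B (ENSSSCG00000000190), an alpha-tubulin, was at 2170.0, 2247 and 2132 CPM in NC, 2224, 2277 and 2162 CPM in WT, 2367, 2415 and 2329.7 CPM in Tg1, 2329.6, 2423 and 2416 CPM in Tg2 and 2369, 2366 and 2336 CPM in Tg3. Its score of 0.0327 was the only one above 2 counting standard errors. Reads of TUBA1B can be shared with near-identical tubulin genes, so its level is uncertain. HAUS8 (ENSSSCG00000036584), of the augmin complex that branches spindle microtubules, was at 12.3, 12.6 and 12.2 CPM in NC, 12.8, 12.7 and 10.1 CPM in WT, 14.9, 14.6 and 13.9 CPM in Tg1, 15.8, 15.1 and 13.9 CPM in Tg2 and 13.3, 14.5 and 13.9 CPM in Tg3. HAUS8 was the least abundant member, and WT replicate 3 was its lowest library. ARHGAP29 (ENSSSCG00000006889), a GTPase-activating protein, ranged from 430.3 to 448 CPM (median 439) in the 9 mutant libraries and from 385 to 419 CPM (median 415) in the 6 others. The epithelial genes KRT7, PKP3 and EZR, for a keratin, a desmosomal plakophilin and the membrane linker ezrin, had scores of 0.00743, 0.0085 and -0.0033.

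Of the cytokine members, TNFAIP2 (ENSSSCG00000036612), a gene induced by tumor necrosis factor, was at 286, 280.2 and 287 CPM in NC, 285, 297 and 248 CPM in WT, 307, 306 and 318 CPM in Tg1, 342, 324 and 324 CPM in Tg2 and 318, 324 and 319 CPM in Tg3. TNFRSF12A (ENSSSCG00000027130), the receptor for the cytokine TWEAK, was at 186, 188 and 179.8 CPM in NC, 192, 199 and 189.5 CPM in WT, 207, 202 and 202 CPM in Tg1, 214, 223 and 202 CPM in Tg2 and 202, 214 and 204 CPM in Tg3. Both were highest on average in Tg2, and in TNFAIP2 the WT libraries spread more widely than those of any other group. IL17RA (ENSSSCG00000000765), a receptor chain for interleukin-17, ranged from 61.1 to 69.1 CPM (median 63.4) in the 9 mutant libraries and from 54.1 to 60.3 CPM (median 58.1) in the 6 others. TNFRSF21 (death receptor 6) and the chemokine gene CCL19 had scores of -0.00231 and -0.0215.

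A list of NF-kB targets and regulators gave 2 members, TNFAIP2 and TNFRSF21, of 27 genes at 10 CPM or more (7.41%). Its other 27 genes, again what the score left, had a median log2 fold change of 0.46 in Tg2 against NC, more than that of the members. There edgeR called 15 of them higher (background 4.73%), and it called 1 in Tg1 and 0 in Tg3. In Tg3, 15 of the 27 had an unadjusted edgeR p under 0.05, as did 2089 of the 11553 genes, and DESeq2 called 2 of the 27. Of all genes at 10 CPM or more, 1.03% were members, so the share in the NF-kB list was higher, though it rests on 2 genes. Calls in the other genes of that list were common in Tg2 only. The proteasome list, without beta subunits, gave 1 member (PSMD10) of 30, and the DNA replication list 1 (RFC2) of 35. MHC and antigen processing, further interferon-induced genes, ERK and MAPK feedback regulators, secreted matrix and protease genes, complement and acute phase genes, and nucleotide and amino acid supply gave 0 members. The lists with 0 members had from 7 to 37 genes at 10 CPM or more. That is too few for 0 to be told apart from a share of 1.03%. The single members of the proteasome and DNA replication lists are too few for this as well. Of the other genes of these 8 lists, in the order just given, 2 of 29, 6 of 37, 12 of 16, 9 of 40, 7 of 13, 7 of 17, 6 of 8 and 9 of 31 were called higher in Tg2 against NC. In the last list, 1 gene was called lower there. Without Tg2 replicate 2 or without NC replicate 3, 0 genes of each of these lists, NF-kB targets included, were called higher in Tg2. Without Tg2 replicate 1, the calls were 1 NF-kB gene, 1 ERK and MAPK gene and 2 nucleotide and amino acid supply genes, with 0 in the other lists. Without NC replicate 1, the only call was 1 nucleotide and amino acid supply gene. Some other settings raised the counts, most of all for the interferon-induced genes. Of these 40, 32 were called with a replicate block, 31 with only the 2 groups fitted, 25 without Tg2 replicate 3 and 21 without NC replicate 2.

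Mitochondrial members included MCU (ENSSSCG00000010290), the pore of the calcium uniporter, which was at 84.4, 84.6 and 84.7 CPM in NC, 80.0, 84.0 and 77.9 CPM in WT, 86.6, 85.6 and 84.5 CPM in Tg1, 95.4, 100.5 and 89.4 CPM in Tg2 and 88.5, 92.2 and 87.9 CPM in Tg3. MCU was highest on average in Tg2, and in Tg1 it overlapped NC. In Tg2 against Tg1, MCU differed by 0.19 (SE 0.06) on the log2 scale, with an edgeR adjusted p of 0.111. DHX30 (ENSSSCG00000011342), an RNA helicase of mitochondrial translation, ranged from 107 to 117 CPM (median 113) in the 9 mutant libraries and from 101 to 104 CPM (median 103) in the 6 others. MRPL38, of the mitochondrial ribosome, and TBRG4, which acts on mitochondrial RNA, had scores of -0.00067 and -0.02.

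Among cell cycle members, CDC25A (ENSSSCG00000021494), the phosphatase that activates cyclin-dependent kinases, was at 25.8, 25.4 and 23.1 CPM in NC, 24.9, 25.2 and 23.9 CPM in WT, 26.2, 26.4 and 27.1 CPM in Tg1, 30.1, 30.2 and 27.7 CPM in Tg2 and 27.7, 30.5 and 28.3 CPM in Tg3. Tg1 lay between NC and the other 2 mutants, with log2 fold changes of 0.14, 0.32 and 0.26 in Tg1, Tg2 and Tg3 against NC (SE 0.07). DCLRE1B, a nuclease of telomeres, NSMCE4A, of the SMC5/6 complex, and RFC2, of the clamp loader, had scores of 0.0114, -0.0083 and -0.008. Of the members with other roles, VAMP5 (ENSSSCG00000033135), a SNARE protein of vesicle fusion, was at 23.7, 23.8 and 22.4 CPM in NC, 22.1, 25.2 and 22.9 CPM in WT, 26.9, 30.9 and 27.6 CPM in Tg1, 27.8, 27.5 and 27.5 CPM in Tg2 and 27.9, 29.4 and 26.2 CPM in Tg3. MT1X (ENSSSCG00000030300), a metallothionein that binds zinc and copper, was at 130.0, 127 and 121 CPM in NC, 127, 141 and 111 CPM in WT, 149, 159 and 171 CPM in Tg1, 159, 164 and 150.2 CPM in Tg2 and 159, 144 and 145 CPM in Tg3. MT1X had log2 fold changes of 0.38, 0.40 and 0.28 in Tg1, Tg2 and Tg3 against NC (SE 0.09), and its reads can be shared with other metallothionein genes. The highest score without a symbol was that of ENSSSCG00000039757, 0.0163.

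Between the mutants, and between WT and NC, 0 members were called, in a set that the score had already drawn toward level genes. In Tg2 against Tg1, edgeR called 0 of the 98 members and 16 of 11553 genes (0.138%). At an unadjusted p under 0.05 were 21 of the 98 members and 2284 of the 11553 genes. DESeq2 called 0 members and 162 genes (1.40%). Members were higher in Tg2 for 91 of 98 genes with TMM, with a median log2 fold change of 0.08. With TMM, 49.9% of all genes were higher. With library totals, 76 members were higher. There the median of all genes against NC was lower in Tg2 (-0.075) than in Tg1 (-0.032). The 76 thus lay against a background shifted downward, whose share of higher genes is not given here. The smallest adjusted p of a member was that of PKP3 (ENSSSCG00000027302), which was at 103, 97.5 and 99.3 CPM in NC, 92.6, 96.0 and 96.1 CPM in WT, 106, 104 and 106 CPM in Tg1, 112, 117 and 112 CPM in Tg2 and 108, 109 and 107 CPM in Tg3. All 3 Tg2 libraries of PKP3 lay above all 3 Tg1 libraries, at a log2 difference of 0.15 (SE 0.04), an edgeR adjusted p of 0.0856 and an exact two-sided permutation p of 0.1, the smallest that 3 against 3 libraries allow.

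In Tg3 against Tg1, edgeR called 0 members and 71 genes (0.615%), with 8 members and 1828 genes at an unadjusted p under 0.05. DESeq2 called 0 members and 139 genes (1.20%). Members were higher in Tg3 for 71 of 98 genes with TMM and 69 with library totals, with a median of 0.03. With TMM, 49.4% of all genes were higher. The 71 became 54 without Tg3 replicate 2, 57 without Tg1 replicate 1 and 84 without Tg3 replicate 3. PWP2 came first, at 50.5, 50.4 and 47.3 CPM in NC, 50.7, 47.1 and 46.8 CPM in WT, 52.6, 52.3 and 51.0 CPM in Tg1, 51.9, 55.4 and 56.8 CPM in Tg2 and 58.8, 57.8 and 57.2 CPM in Tg3, at a log2 difference of 0.16 (SE 0.05), an edgeR adjusted p of 0.105 and no overlap between Tg3 and Tg1. In Tg3 against Tg2, edgeR called 0 members and 0 genes (0%), with 13 members and 673 genes at an unadjusted p under 0.05, and DESeq2 called 0 genes (0%). Members were lower in Tg3 for 82 of 98 genes with TMM but for 54 with library totals, so this count rested on scaling. With library totals, the median of all genes against NC was higher in Tg3 (-0.038) than in Tg2 (-0.075). The 54 thus lay against a background shifted upward, whose share of lower genes is not given here. With TMM, 49.7% of all genes were higher in Tg3 than in Tg2.

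The 2 groups below the mutants were also compared with each other. In WT against NC, edgeR called 0 members and 0 genes (0%), with 0 members and 524 genes at an unadjusted p under 0.05, and DESeq2 called 11 genes (0.0952%) and 0 members. The median log2 fold change of the members was 0.001, with 52 of 98 higher in WT by TMM and 42 by library totals. By TMM, 48.2% of all genes were higher in WT. The median was -0.04 without WT replicate 2. None of the 98 members reached a log2 fold change of 0.26 in either direction in these 4 comparisons, so the fold threshold by itself gives 0 calls.

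Against NC, the median of the members was 0.14 in Tg1, 0.22 in Tg2 and 0.18 in Tg3, and against WT it was 0.15, 0.22 and 0.18. The 6 comparisons share their mutant or control libraries and were fixed in direction by the score, and all 98 genes were higher in each. The call rule was met by 2 members in Tg1 (background 0.182%), 30 in Tg2 (4.73%) and 0 in Tg3 (0%) against NC, a count from which nothing is read because the score used the same libraries. With library totals, Tg2 had the highest mutant mean for 50 members, Tg3 for 33 and Tg1 for 15, whereas Tg1 had the highest mutant mean for 43.6% of the 9536 genes and Tg2 for 22.6%.

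**Figure D4:**
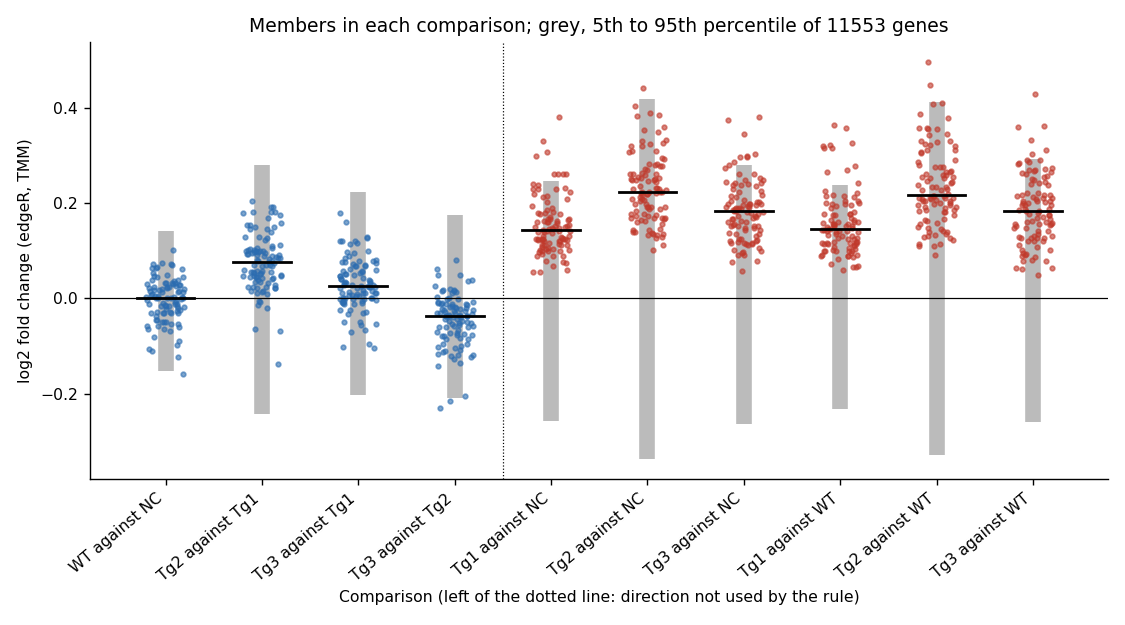
log2 fold change (edgeR, TMM) of the 98 members (points) in 10 comparisons, with the median of the members as a black line and the 5th to 95th percentile of 11553 genes as a gray bar. Blue comparisons, left of the dotted line, are those whose direction the score did not use, and their medians lie between -0.04 and 0.08; red comparisons are those it used, and their medians lie between 0.14 and 0.22.

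The order of the libraries differed between wells of a group. The highest WT or NC value was in WT replicate 2 for 33 of the 98 genes, and the lowest mutant value was in Tg1 replicate 1 for 26. With TMM, the median of the members relative to the mean over all libraries was -0.10, -0.03 and -0.17 in WT replicates 1, 2 and 3, and -0.11, -0.06 and -0.14 in those of NC. The same medians were 0.01, 0.05 and 0.05 in Tg1, 0.13, 0.13 and 0.07 in Tg2 and 0.07, 0.10 and 0.02 in Tg3. In WT replicate 2, 95 of the 98 members lay above their WT mean, and in WT replicate 3 only 3 did, where 49.3% and 48.8% of the 9536 genes lay above theirs. Relative to the mean of its own group, the median of the members was above 0 in replicate 2 of all 5 groups and below 0 in replicate 3 of 4 groups, Tg1 being the exception. The members therefore moved together between wells of the same plasmid, over a range in WT that was close to the difference between groups, and the part of this variation between wells in the scores was not tested.

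Membership followed these wells and the scaling. Without WT replicate 2, 32 of the 98 genes stayed among the 100 highest scores and 150 genes had a score above 0. Without Tg1 replicate 1, 70 stayed. With TMM 59 stayed and 95 genes had a score above 0, and with DESeq2 size factors 57 stayed. The TMM factors ran from 0.951 in Tg2 replicate 1 to 1.04 in WT replicate 3, so TMM raised the CPM of Tg2 relative to WT and NC. A score above 0 under all 3 scalings was held by 30 members. Among the 100 highest scores under both other scalings and in each of the 15 sets with 1 library left out were 18 members, namely RRP8, DDX56, TRMT61A, VAMP5, HAUS8, TNFAIP2, ARHGAP29, CHERP, DKC1, TUBA1B, NOB1, MT1X, POLR3E, CDC25A, GTPBP4, NOC4L, TNFRSF12A and PES1.

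**Figure D5:**
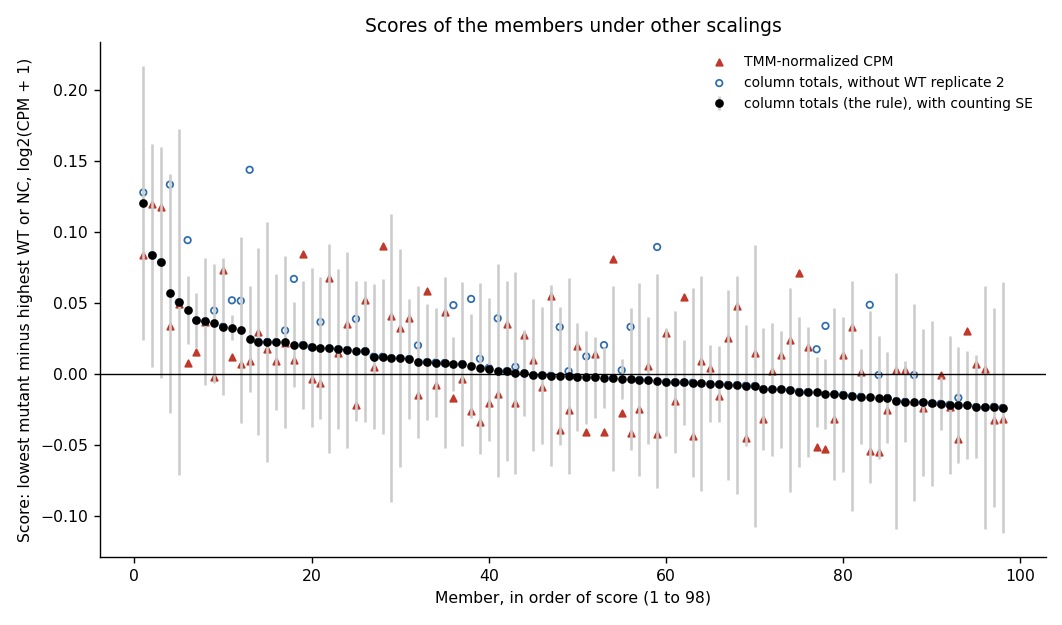
Score of each member (vertical axis, difference in log2(CPM + 1)) in order of rank, with library totals (black, bars of 1 counting standard error), with TMM (red triangles) and with library totals but without WT replicate 2 (open blue circles). The black points run from 0.121 to -0.0237, and the red triangles scatter around them on both sides of 0.

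The labelled cell type was checked against marker genes. Of 17 proximal tubule markers in the table, 14 had 2 CPM or more, led by PDZK1, AQP1 and LRP2, while SLC22A8, FBP1 and GATM were below 1 CPM. All 8 epithelial markers in the table were present. Of the fibroblast markers in the table, 1 of 7 had 2 CPM or more (COL1A2), as did 1 of 5 for endothelium and 4 of 10 for leukocytes, and no member was a marker. The summed proximal tubule markers ranged from 1559 to 1974 CPM in WT and 1699 to 1959 CPM in NC, and from 1540 to 1776 CPM in Tg1, 1256 to 1618 CPM in Tg2 and 1347 to 1574 CPM in Tg3. All Tg2 and Tg3 libraries lay below all NC libraries in this sum, and Tg1 and WT overlapped. Of the distal tubule and collecting duct markers in the table, 5 of 10 had 2 CPM or more. Their sum was mostly that of 1 gene, ATP6V1B1, with a mean of 231 CPM. It was at 249.6 to 287 CPM over the 9 mutant libraries, 289 to 301 CPM in NC and 286 to 303 CPM in WT. Summed epithelial markers, of which KRT8 made up the largest part, were at 3581 to 3861 CPM over the mutants, 3499.5 to 3519 CPM in NC and 3601 to 3691 CPM in WT. The fibroblast sum, nearly all COL1A2, was at 808 to 905 CPM in Tg2 and Tg3, 867 to 1011 CPM in Tg1, 932 to 993 CPM in NC and 917 to 1069 CPM in WT. The endothelial sum was low, and EMCN was its only marker at 2 CPM or more. It was 4.51 to 5.02 CPM in Tg2, 4.12 to 4.6 CPM in Tg3 and 3.07 to 3.44 CPM in NC. Tg1, at 3.26 to 4.51 CPM, and WT, at 2.56 to 4.48 CPM, overlapped NC. The leukocyte sum was 39.2 to 42.3 CPM over all 15 libraries. The part of these markers in the result was not tested. In these bulk libraries, a change in the share of a kind of cell and a change per cell cannot be told apart.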

How the data were processed

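RNA of LLC-PK1 cells was sequenced in 15 libraries, 3 per plasmid, grouped by the sample labels. The authors quantified reads with Salmon 0.14.1 against the Ensembl release 98 pig transcripts and deposited whole-number counts per gene without normalization. How transcripts were summed to genes, and the genome build, are not given in the sources used here. Totals ranged from 20216200 to 26132196 counts per library.

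Scores used CPM from library totals, a pseudocount of 1 and a mean of 10 CPM or more. Symbols came from the supplementary gene tables of the study or, where these gave none, from an Ensembl gene name table. Members and lists were chosen with earlier results of these data known. Genes with a mean of 2 CPM or more (11553) were fitted with edgeR 4.0.16 (TMM, glmQLFit, glmQLFTest, all 15 libraries) and adjusted by Benjamini-Hochberg. Genes called passed an adjusted p of 0.05 with a log2 fold change beyond 0.26 in either direction. The fit was tested on simulated data. DESeq2 1.42.0, DESeq2 size factors, other filters, pseudocounts, replicate blocks and omission of single libraries were alternatives. Members named in full are the 20 highest scores with a symbol, members on a list, genes at the boundary and the leading gene of each tested comparison, and others, MCU included, are named by role after their values were seen. Exact permutation tests were two-sided. No sequences are given.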

Additional observations from a re-analysis of the deposited data

How the results depend on the processing

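Of the 98 members, 59 remained among the 100 highest scores with TMM, 57 with DESeq2 size factors, 28 against NC libraries only, 54 against WT libraries only and 0 when genes were ordered by the difference of means. Leaving out single libraries kept between 32 (without WT replicate 2) and 98 of them, and TMM without WT replicate 2, an alternative chosen after seeing the data, kept 39. Other CPM minimums and pseudocounts kept 94 to 97. The count of members called in the 4 tested comparisons was 0 in all 52 alternatives, which says little because the fold threshold was rarely reached. The smallest adjusted p of a member in Tg2 against Tg1 was 0.0416 with DESeq2, 0.0438 with the replicate block and 0.0429 without Tg2 replicate 3, against 0.0856 with edgeR. The 6 medians against NC and WT stayed above 0, between 0.107 and 0.255, in all 78. Over all genes, calls in Tg2 against Tg1 (16) were 162 with DESeq2, 7 without a filter, 54 with 10 CPM or more, 0 when only these groups were fitted (2211 genes at an unadjusted p under 0.05) and from 0 to 118 with single libraries left out. In Tg3 against Tg1 (71) they were 139 with DESeq2, 118 without the fold threshold, 32 with only these groups and from 3 to 113 with single libraries left out, and in WT against NC (0) they were 11 with DESeq2 and from 0 to 25, the highest without WT replicate 2. Replicate numbers were not used to pair the wells, because the labels name no shared batch and 18, not all, of 30 same-numbered pairs of libraries had correlated deviations above 0.1 (range -0.375 to 0.533). The mean correlation was 0.135 for the same number and -0.068 for other numbers, so some sharing by number is possible. Under a replicate block, calls came to 162 in Tg2 against Tg1, 108 in Tg3 against Tg1, 0 in Tg3 against Tg2 and 0 in WT against NC. Members past the call rule against NC in Tg2 (30) ranged from 0 to 42 with single libraries left out, and those against WT in Tg3 (0) were 11 with DESeq2, 11 with the block and 35 without WT replicate 2. The depth sets a counting error of the scores from 0.0089 (TUBA1B) to 0.122 (HAUS8), with a median of 0.050.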

Other observations

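Among the members were several neighbors in the RefSeq gene order of Sscrofa11.1. RRP1 and AGPAT3, and B4GALNT4 and PKP3 are adjacent, and AGPAT3 and PWP2, WDR37 and GTPBP4, and TBRG4 and CCM2 have 1 gene between them. The genomic span had a median of 16.6 kb over the 86 members matched to RefSeq by symbol (87.8%), and 30.6 kb over the 8128 matched genes with 10 CPM or more (85.2%). The 100 genes with the lowest levels in the mutants by the mirrored score had a median of 49.2 kb over the 86 matched. These are descriptions of the genes, with no test.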
